A study of Mus musculus with 9 samples.

Results

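The genes described here are those of DNA damage signalling and DNA repair, in the mouse melanoma line B16, cultured in DMEM with 10% fetal bovine serum. They were chosen by symbol among the protein-coding rows of the count table: the Fanconi anaemia genes with a single letter, the breast cancer genes Brca1 and Brca2 with their partners, symbols that begin with Rad and a number, the Xrcc, Ercc, Msh, Mlh, Pms and Neil genes, and named kinases, polymerases, ligases, nucleases and glycosylases. The rule took 78 of 21676 genes and used no measured value, and all 78 passed the filter on low counts. Total RNA was sequenced from 3 groups of 3 libraries. Control cells carried a control hairpin (spelled shCotrol in the labels, shControl below), and the other groups carried the hairpin shAD4-1 or the hairpin shAD4-2. The design text calls the hairpin groups knockdown derivatives with 3 biological replicates each, and the series title points to ADGRL4, an adhesion G protein-coupled receptor. Transcripts of that receptor are not analysed here, so the labels carry no check from it. The labels name no further allele, treatment or time point, and do not say how many clones a hairpin group holds or whether the libraries came from separate cultures, so p-values measure the spread between these libraries.

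Cells answer broken or blocked DNA with kinase signalling and with several repair routes. Atm and Atr are the upstream kinases, and they activate the checkpoint kinases Chek2 and Chek1, which delay the cell cycle. Double-strand breaks are rejoined end to end, or copied from the sister chromatid by homologous recombination, a route open mainly in S and G2 phase. Crosslinks are handled by the Fanconi anaemia proteins, copying errors by mismatch repair, bulky and ultraviolet lesions by nucleotide excision repair, and small base lesions by base excision repair. Ultraviolet lesions are the class of damage for which nucleotide excision repair is best known in pigment cells. Many recombination and checkpoint genes are transcribed mainly in proliferating cells.

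Library totals ran from 31319244 to 36880496 reads, of which 117315 to 160291 fell on the 78 genes. Values per library below are read counts scaled by library total and TMM factor (CPM), a scale that compares libraries and not genes. Fold changes, SEs and adjusted p-values come from a quasi-likelihood test in edgeR, with p-values adjusted after Benjamini and Hochberg across the 13807 genes tested, and a gene is called where that p is under 0.05. The library shControl replicate 1 stood apart from its group: counts over all tested genes gave a chi-square per degree of freedom of 12.1 and 17.6 against the other control libraries, which differed from each other by 3.38, and 2.95 to 6 within the hairpin groups. Without it, 34 repair genes were called higher and 21 lower with shAD4-1, 37 and 22 with shAD4-2, and 26 and 11 between the hairpins, beside 35 and 18, 39 and 21, and 20 and 8 with all 9 libraries. Of 9 melanocyte lineage markers all 9 were tested. Their summed level was 11300 to 13000 CPM in the control libraries, 10140 to 10360 with shAD4-1 and 11000 to 12020 with shAD4-2. Tyrp1 and Dct, with control means of 4839 and 5090 CPM, made up most of it. With shAD4-1, 7 of the 9 were called lower and none higher (77.8%, beside 65.0% of all tested genes). With shAD4-2, Pmel, Mlana and Gpr143 were called higher and Tyr and Tyrp1 lower (55.6%, beside 69.0%). The leukocyte and endothelial markers summed to no more than 0.0616 and 0.283 CPM in any library, and the fibroblast markers to 4.25 to 8.95 CPM. Reads of the 13 mitochondrially encoded genes made up 2.3 to 2.61% of the control, 3.62 to 3.81% of the shAD4-1 and 3.6 to 3.89% of the shAD4-2 libraries. With those genes left out, the counts of repair genes called against control were the same.

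Genes of several routes rose with both hairpins, and Chek1 rose most. Chek1 (checkpoint), Brca1 and Bard1 (recombination), Brip1 (Fanconi anaemia) and Apex1 (base excision) rose between 1.64 and 2.20-fold with shAD4-1 and between 2.18 and 2.63-fold with shAD4-2. Ddb1 (nucleotide excision) and Rad9a (checkpoint clamp) rose 1.78 and 1.71-fold with shAD4-1 and 1.90 and 1.74-fold with shAD4-2. Brca2, Ddb2, Fance, Fancf and Atm fell in both, by at most 1.88-fold. With shAD4-1, 35 genes were called higher and 18 lower, 67.9% of the 78, beside 65.0% of all tested genes (32.7% higher and 32.3% lower). By limma on log2(FPKM + 1), a unit that scales libraries by their totals alone, that split was 29 higher and 24 lower. With shAD4-2, 39 were called higher and 21 lower, 76.9%, beside 69.0% of all tested genes (34.2% higher and 34.8% lower). The libraries of the compared groups did not overlap in 53 genes with shAD4-1 and 59 with shAD4-2, or 67.9% and 75.6%, beside 68.0% and 70.6% of all tested genes. The median log2 fold change of the 78 genes was 0.072 with shAD4-1 and 0.13 with shAD4-2, and that of all tested genes -0.010 and -0.011. Called changes of at least 1.5-fold were upward for 11 and 19 of the genes (14.1% and 24.4%, beside 12.6% and 13.7% of all tested genes). They were downward for 2 and 5 (2.56% and 6.41%, beside 12.5% and 15.6%).

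Of the 78 genes 30 were called higher with both hairpins (28.1% of all tested genes were) and 17 lower with both (27.6%). None was called in opposite directions, beside 0.659% of all tested genes. Another 19 were called with 1 hairpin, and 12 with neither. The shares of all tested genes with these patterns were not worked out, so the counts are description only. The comparisons share the 3 control libraries, so a control that differed would move both alike. Summed over the 78 genes, the level was 3610 to 3650 CPM in the control libraries, 4252 to 4312 with shAD4-1 and 4409 to 4457 with shAD4-2, with no overlap between groups. Without Ddb1 and Rad23b, the members with the most reads, the sum was 2838 to 2880 CPM in the control libraries, 2994 to 3022 with shAD4-1 and 3173 to 3199 with shAD4-2.

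**Figure D1:**
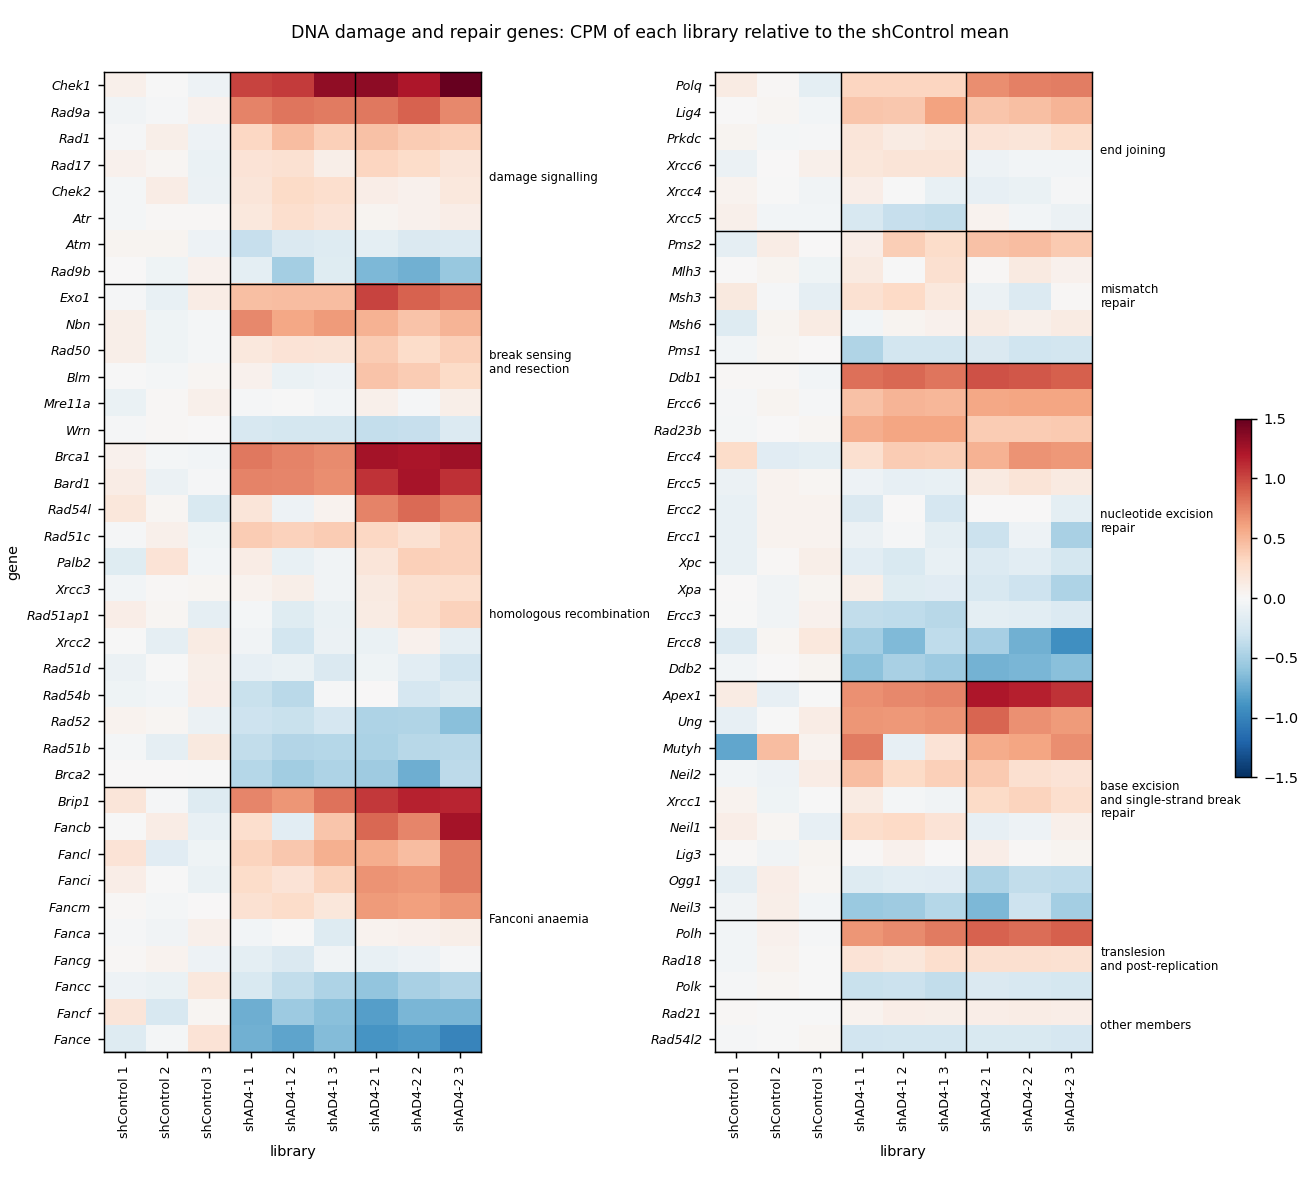
Colour shows log2 of each library's CPM over the mean control CPM for 74 of the 78 genes (rows, sorted by role and mean change) in the 9 libraries (columns). Chek1, Brca1, Bard1, Brip1 and Apex1 are red in all 6 hairpin libraries, and Fance, Fancf, Ddb2 and Brca2 are blue in all 6. The red is deepest with shAD4-2, except in Chek1, where the libraries of the hairpin groups overlap.

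Per length of transcript, the genes spanned a wide range in control cells. Rad23b and Ddb1, both of the machinery that recognises ultraviolet lesions, stood highest, at 102 ± 1.70 FPKM and 95.4 ± 2.56 FPKM (mean ± SD, n = 3, FPKM being scaled by gene length and library total, so that genes can be compared). They were followed by the cohesin subunit Rad21 at 75.3 ± 0.942 FPKM and by Xrcc5 at 40.0 ± 2.20 FPKM. The lowest were Rad51b at 0.919 ± 0.0911 FPKM, Mutyh at 0.534 ± 0.213 FPKM and Fancb at 0.409 ± 0.0311 FPKM. The means of 49 genes lay from 1 to 10 FPKM, those of 26 at 10 or more and those of 3 under 1, with a median of 5.44 FPKM.

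Promoter sequences are shown for 4 genes, because their windows hold letters known for binding by E2F factors, which drive many S phase genes, and because 3 of the genes rose and 1 fell with both hairpins. The windows run from 250 bases before to 50 bases after the gene start and come from RefSeq on GRCm38.p6, a build other than the one named for the authors' reads. Capitals mark the searched letters on either strand: the E2F forms TTTCCCGC, TTTGGCGC, TTTCGCGC and TTCCCGCC, of which the first and the last can overlap, and the forms TTTGAA and TTCGAA of the cell cycle homology region (CHR). Chek1 (chr9:36726609-36726908, minus strand), Bard1 (chr1:71102923-71103222, minus strand) and Polq (chr16:37011536-37011835, plus strand) rose, and Brca2 (chr5:150522371-150522670, plus strand) fell.
Chek1: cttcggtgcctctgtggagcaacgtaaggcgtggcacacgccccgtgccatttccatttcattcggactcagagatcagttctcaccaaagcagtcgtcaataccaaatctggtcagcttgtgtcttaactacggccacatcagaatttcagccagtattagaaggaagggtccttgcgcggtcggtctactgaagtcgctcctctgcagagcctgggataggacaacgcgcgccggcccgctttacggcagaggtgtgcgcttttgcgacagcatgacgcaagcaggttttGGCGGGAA
Bard1: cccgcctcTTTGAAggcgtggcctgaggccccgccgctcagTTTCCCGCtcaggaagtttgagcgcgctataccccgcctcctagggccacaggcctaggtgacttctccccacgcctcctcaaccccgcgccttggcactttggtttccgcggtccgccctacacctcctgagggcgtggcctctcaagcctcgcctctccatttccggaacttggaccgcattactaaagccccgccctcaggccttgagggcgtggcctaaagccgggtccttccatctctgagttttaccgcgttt
Polq: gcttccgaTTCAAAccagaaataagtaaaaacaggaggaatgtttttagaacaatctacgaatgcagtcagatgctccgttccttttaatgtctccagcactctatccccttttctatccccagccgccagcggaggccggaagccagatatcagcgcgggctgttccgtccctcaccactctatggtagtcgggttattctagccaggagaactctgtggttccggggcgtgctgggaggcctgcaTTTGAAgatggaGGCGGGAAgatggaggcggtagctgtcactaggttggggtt
Brca2: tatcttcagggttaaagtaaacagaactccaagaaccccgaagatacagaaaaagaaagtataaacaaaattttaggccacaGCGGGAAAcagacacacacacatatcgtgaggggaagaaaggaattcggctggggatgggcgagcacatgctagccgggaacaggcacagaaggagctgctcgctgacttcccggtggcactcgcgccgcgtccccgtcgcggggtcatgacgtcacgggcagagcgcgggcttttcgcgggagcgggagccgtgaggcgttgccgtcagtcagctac
The match in Chek1 lies 42 bases after the gene start and that in Polq 9 bases after it, while those in Bard1 and Brca2 lie at -209 and -168. Of the 78 genes 59 were matched to 68 windows, and 14 windows (20.6%) held an E2F form, beside 6.08% of 14010 windows of all tested genes and 3.49% of all 32851 windows. The share was 6 of 25 windows (24%) for genes called higher with both hairpins, near the 20.6% of all members. For genes called lower with both it was 1 of 14 (7.14%). Counted by gene these were 5 of 21 and 1 of 12, since both windows of Rad51c held a form. The windows of Brca1, Brip1, Apex1 and Ddb1, which rose with both hairpins, held no E2F form. A CHR form stood in 7 of 68 windows (10.3%), beside 14.1% for all tested genes. These matches describe letters in the windows and show no binding.

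Among the genes of damage signalling, the effector kinase of the replication checkpoint rose and the upstream kinases moved little. Chek1, which Atr activates at stalled forks, stood at 11.6, 10.9 and 10.3 CPM in the control, 22.1, 22.7 and 27.4 in the shAD4-1 and 27.7, 25.4 and 33.3 in the shAD4-2 libraries. Its log2 fold changes were 1.14 (SE 0.10, adjusted p = 1.92e-08) with shAD4-1 and 1.40 (SE 0.10, adjusted p = 8.96e-10) with shAD4-2, the largest of the 78 genes in either comparison with control, and no hairpin library overlapped a control library. Rad9a, a subunit of the clamp that brings Atr its activator, stood at 21.6, 22.2 and 23.4 CPM in the control, 37.5, 39.2 and 38.4 in the shAD4-1 and 38.9, 41.4 and 37 in the shAD4-2 libraries, log2 fold changes 0.77 (SE 0.061, adjusted p = 2.7e-09) with shAD4-1 and 0.80 (SE 0.061, adjusted p = 1.48e-09) with shAD4-2. Rad1, another clamp subunit, was at 22.1, 23.6 and 21.1 CPM in the control, 27.5, 30.8 and 28.6 in the shAD4-1 and 30.3, 29.1 and 28.5 in the shAD4-2 libraries, and rose by 0.38 and 0.40 on the log2 scale (adjusted p = 6.12e-05 and 3.68e-05). Rad17, which loads the clamp, was also called higher with both (0.18 and 0.26), though with shAD4-1 the call was lost without shControl replicate 3 or shAD4-1 replicate 2, or with limma on FPKM (adjusted p = 0.0625 to 0.105).

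Atr itself was measured at 67.3, 69.5 and 69.8 CPM in the control, 77, 82.3 and 79.4 in the shAD4-1 and 70.7, 71.8 and 73.7 in the shAD4-2 libraries. It rose with shAD4-1 (0.21, SE 0.044, adjusted p = 0.00041) and was not called with shAD4-2 (0.066, SE 0.044, adjusted p = 0.196), although each shAD4-2 library lay just above each control. Chek2, the kinase downstream of Atm, behaved alike in its calls, at 29.4, 32.2 and 28 CPM in the control, 33.9, 36.6 and 35.5 in the shAD4-1 and 32, 31.3 and 33.4 in the shAD4-2 libraries. Its rise was called with shAD4-1 (0.24, SE 0.063, adjusted p = 0.0025) and not with shAD4-2 (0.11, SE 0.064, adjusted p = 0.13), where it was called without shControl replicate 2 (adjusted p = 0.0293). Atm, the kinase that answers double-strand breaks, fell in both groups, from 3 control values of 95.2, 95.6 and 88 CPM to 73.1, 80.2 and 81.2 with shAD4-1 and 83.7, 80.1 and 80.3 with shAD4-2. The changes were -0.25 (SE 0.049, adjusted p = 0.000222) with shAD4-1 and -0.19 (SE 0.050, adjusted p = 0.00222) with shAD4-2, small beside that of Chek1, and no hairpin library reached a control library. Rad9b, a relative of Rad9a known mainly from testis, was at 6.92, 6.62 and 7.21 CPM in the control, 6.26, 4.88 and 6.08 in the shAD4-1 and 4.34, 4.20 and 4.67 in the shAD4-2 libraries. It fell with shAD4-2 (-0.65, SE 0.13, adjusted p = 0.000248), and with shAD4-1 it missed the threshold (-0.27, SE 0.13, adjusted p = 0.0719), which limma on FPKM passed (adjusted p = 0.0151). In all, 6 of the 8 genes were called higher and 1 lower with shAD4-1, and 4 and 2 with shAD4-2. That is 87.5% and 75.0% called, beside 65.0% and 69.0% of all tested genes.

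Of the 6 genes that sense breaks or resect their ends, 3 were called higher and 1 lower with shAD4-1. With shAD4-2 the counts were 4 and 1. The shares called were 66.7% and 83.3%, beside 65.0% and 69.0% of all tested genes. Exo1, an exonuclease of end resection and mismatch repair, rose stepwise over the groups, at 14.6, 13.7 and 16 CPM in the control, 20.1, 20.3 and 20.4 in the shAD4-1 and 29.7, 27.3 and 26 in the shAD4-2 libraries. The changes were 0.46 (SE 0.077, adjusted p = 4.19e-05) with shAD4-1 and 0.90 (SE 0.076, adjusted p = 5.03e-09) with shAD4-2. Nbn, which recruits Atm to breaks as part of the Mre11 complex, stood at 23.4, 21.1 and 21.7 CPM in the control, 36.3, 32.9 and 34.4 in the shAD4-1 and 31.8, 29.8 and 31.4 in the shAD4-2 libraries, so that the shAD4-1 libraries were the highest. It rose by 0.65 and 0.49 on the log2 scale (adjusted p = 5.69e-08 and 2.08e-06). Rad50, the ATPase of that complex, was at 91.5, 82.2 and 84.1 CPM in the control, 95.9, 98.9 and 97.9 in the shAD4-1 and 112, 104 and 110 in the shAD4-2 libraries and rose by 0.18 and 0.34 (adjusted p = 0.00219 and 4.02e-06). The nuclease subunit Mre11a was not called in either comparison. The helicases of the RecQ family parted: Blm, which dissolves recombination intermediates, was called higher with shAD4-2 alone (0.37, adjusted p = 4.34e-05), and Wrn was lower with both (-0.26 and -0.30, adjusted p = 0.00178 and 0.000381).

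**Figure D2:**
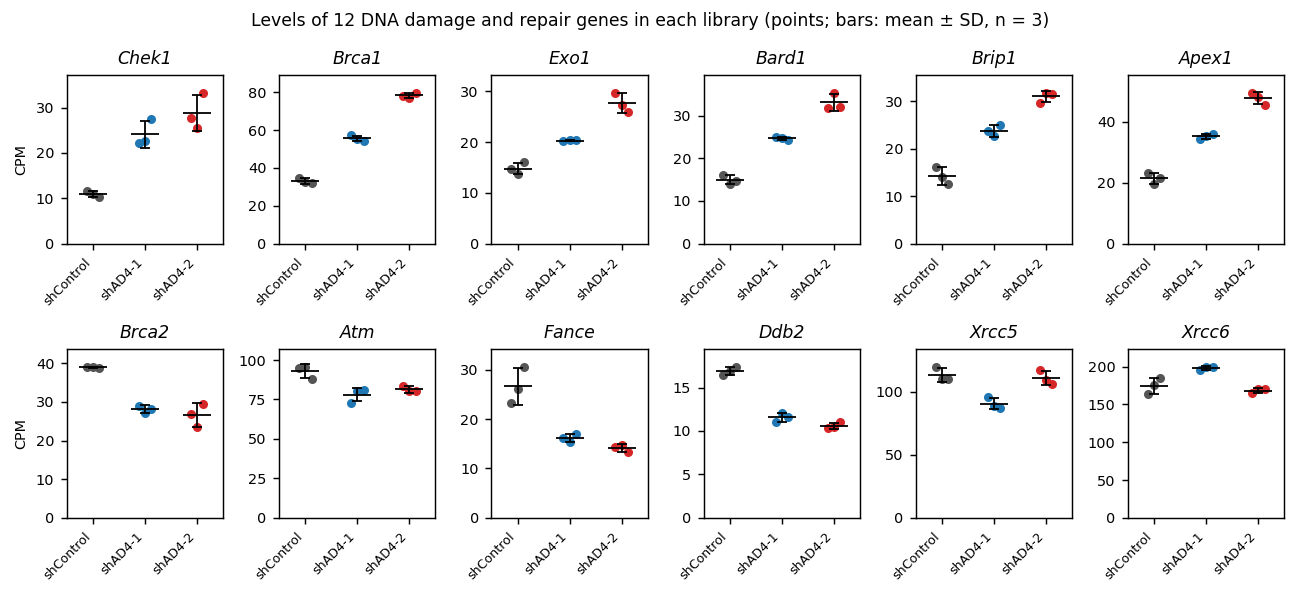
CPM of 12 genes in each library (points) with the mean ± SD of the 3 libraries per group (bars), each panel on its own axis from 0. The group means of Chek1, Brca1, Exo1, Bard1, Brip1 and Apex1 rise from control to shAD4-1 to shAD4-2, Brca2, Atm, Fance and Ddb2 lie lower in both hairpin groups, and Xrcc5 and Xrcc6 stand apart with shAD4-1 in opposite directions.

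Of the recombination genes 4 were called higher with both hairpins and 3 lower with both, beside 28.1% and 27.6% of all tested genes. Another 5 were called with 1 hairpin and 2 with neither, counts that have no share of all tested genes beside them. Brca1, a ubiquitin ligase that promotes resection of broken ends, was measured at 34.7, 32.4 and 32.2 CPM in the control, 57.2, 55.4 and 54.2 in the shAD4-1 and 78.3, 77.1 and 79.9 in the shAD4-2 libraries. No value of 1 group reached another group, and the log2 fold changes were 0.75 (SE 0.050, adjusted p = 2.74e-10) with shAD4-1 and 1.25 (SE 0.050, adjusted p = 1.61e-13) with shAD4-2. Its partner Bard1 stood at 16.1, 14 and 14.7 CPM in the control, 25, 24.8 and 24.3 in the shAD4-1 and 31.8, 35.4 and 32.1 in the shAD4-2 libraries, and changed almost in step, by 0.72 (SE 0.071, adjusted p = 5.4e-08) with shAD4-1 and 1.15 (SE 0.070, adjusted p = 7.08e-11) with shAD4-2.

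Brca2, a mediator of strand exchange that acts on single-stranded DNA, went the other way, at 39, 39 and 38.8 CPM in the control, 29.1, 27.1 and 28.2 in the shAD4-1 and 26.9, 23.4 and 29.6 in the shAD4-2 libraries. Its log2 fold changes were -0.47 (SE 0.070, adjusted p = 1.18e-05) with shAD4-1 and -0.55 (SE 0.071, adjusted p = 1.77e-06) with shAD4-2, and no hairpin library reached a control library. Rad54l, a motor protein that helps in strand invasion, was at 14.4, 13 and 10.9 CPM in the control, 14.5, 12.1 and 13.2 in the shAD4-1 and 21.4, 22.9 and 21.6 in the shAD4-2 libraries. It was not called with shAD4-1 (0.061, SE 0.10, adjusted p = 0.604) and rose with shAD4-2 (0.79, SE 0.10, adjusted p = 8.13e-07). Rad51c, a recombination mediator, was called higher with both (0.36 and 0.30), and its relative Rad51b was lower with both (-0.41 and -0.43), calls that were lost without shControl replicate 3 (adjusted p = 0.0874 and 0.0708). Rad52, a mediator of strand annealing, also fell with both (-0.30 and -0.51, adjusted p = 0.00172 and 8.7e-06). With shAD4-1, 4 of the 14 genes were called higher and 3 lower, a share called below the 65.0% of all tested genes. With shAD4-2 the counts were 8 and 4, or 85.7% called, beside 69.0% of all tested genes. Rad51ap1, which stimulates strand pairing, was called with shAD4-2 alone (0.24) and lost that call with limma on FPKM (adjusted p = 0.0505 to 0.0546). Palb2, which joins Brca1 to Brca2, was called with shAD4-2 alone (0.29) and lost that call without shControl replicate 1 or 3, shAD4-1 replicate 3 or shAD4-2 replicate 2 or 3, with limma on FPKM, with only the compared groups in the fit, or with the replicate block (adjusted p = 0.0514 to 0.127). The paralogs Xrcc3 (0.21) and Rad51d (-0.17) were likewise called with shAD4-2 alone. The call of Xrcc3 was lost without shControl replicate 1 or 2 or shAD4-2 replicate 2 or 3, with limma on FPKM, or with no filter (adjusted p = 0.0551 to 0.0934). That of Rad51d was lost without shControl replicate 2 or 3 or shAD4-2 replicate 2 or 3, or with only the compared groups in the fit (adjusted p = 0.0553 to 0.21). Xrcc2 and Rad54b were called with neither. Without shAD4-2 replicate 3 the Rad51d change was -0.098.

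In the Fanconi anaemia group Brip1, Fancm, Fanci and Fancl rose with both hairpins, and the core subunits Fance, Fancf and Fancc fell. Brip1, a helicase that binds Brca1, was at 16.1, 14.1 and 12.4 CPM in the control, 23.6, 22.5 and 24.9 in the shAD4-1 and 29.6, 31.8 and 31.5 in the shAD4-2 libraries, log2 fold changes 0.74 (SE 0.083, adjusted p = 3.4e-07) with shAD4-1 and 1.13 (SE 0.083, adjusted p = 8.41e-10) with shAD4-2. Fancm, a translocase that anchors the core complex on DNA, stood at 30.4, 29.3 and 30.1 CPM in the control, 34.9, 36.2 and 33.7 in the shAD4-1 and 46.5, 45.7 and 47.3 in the shAD4-2 libraries. It rose by 0.23 and 0.64 (adjusted p = 0.00136 and 5.61e-09). Fanci, of the pair that is ubiquitinated at crosslinks, and Fancl, the ubiquitin ligase subunit, were higher with both (0.27 and 0.70, 0.43 and 0.60). Fance, a core subunit that contacts the substrate pair, fell from 23.2, 26.1 and 30.6 CPM in control to 16.2, 15.3 and 17 with shAD4-1 and 14.3, 14.8 and 13.3 with shAD4-2. The log2 fold changes were -0.72 (SE 0.090, adjusted p = 1.25e-06) with shAD4-1 and -0.91 (SE 0.092, adjusted p = 6.38e-08) with shAD4-2, the lowest value of the 78 genes with shAD4-2.

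Fancf changed by -0.63 and -0.73 and Fancc by -0.35 and -0.51, and the shAD4-1 call of Fancc was lost without shControl replicate 3 (adjusted p = 0.0687). Fancb, the X-linked core subunit and the lowest of the 78 genes per length, stood at 1.35, 1.47 and 1.26 CPM in the control, 1.63, 1.22 and 1.82 in the shAD4-1 and 2.48, 2.26 and 3.22 in the shAD4-2 libraries. It was called with shAD4-2 (0.96, SE 0.24, adjusted p = 0.00143) and not with shAD4-1 (0.19, SE 0.24, adjusted p = 0.505). Fanca and Fancg were not called in either comparison. In all, 4 of the 10 genes were called higher and 3 lower with shAD4-1, and 5 and 3 with shAD4-2. The shares called, 70.0% and 80.0%, stood beside 65.0% and 69.0% of all tested genes.

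Among the end joining genes, the subunits of the Ku ring that binds broken ends did not move together. Xrcc5, which encodes its larger subunit, was at 119.7, 109.8 and 109.8 CPM in the control, 95.5, 88.9 and 87.3 in the shAD4-1 and 117, 109.7 and 106 in the shAD4-2 libraries. It fell with shAD4-1 (-0.32, SE 0.050, adjusted p = 1.78e-05) and was not called with shAD4-2 (-0.025, SE 0.050, adjusted p = 0.668). Xrcc6, the smaller subunit, stood at 164, 175 and 185 CPM in the control, 196, 199.5 and 199.7 in the shAD4-1 and 165, 170.1 and 170 in the shAD4-2 libraries, so that it rose with shAD4-1 (0.18, SE 0.042, adjusted p = 0.000872) and was not called with shAD4-2 (-0.053, SE 0.042, adjusted p = 0.276). The shAD4-2 difference of Xrcc6 was called without shControl replicate 1, or with limma on FPKM (adjusted p = 0.0329 to 0.0414). Prkdc, the kinase that Ku recruits, was at 62.2, 59.1 and 59.9 CPM in the control, 68.4, 65.8 and 67.7 in the shAD4-1 and 69.4, 68.2 and 72.3 in the shAD4-2 libraries, 0.16 and 0.21 on the log2 scale (adjusted p = 0.0057 and 0.000424), and its shAD4-1 call was lost with limma on FPKM (adjusted p = 0.148 to 0.156). Lig4, the ligase of this route, stood at 22.4, 22.6 and 21.7 CPM in the control, 29.5, 29.4 and 33.6 in the shAD4-1 and 29.6, 30.5 and 31.6 in the shAD4-2 libraries, apart from the control in both hairpin groups, with log2 fold changes 0.47 (SE 0.066, adjusted p = 5.01e-06) with shAD4-1 and 0.46 (SE 0.067, adjusted p = 6.7e-06) with shAD4-2. Polq, the polymerase of a back-up route that uses short homologies, was at 13.8, 12.8 and 11.4 CPM in the control, 15.8, 15.9 and 15.9 in the shAD4-1 and 20.6, 21.4 and 21.5 in the shAD4-2 libraries. It rose by 0.32 (adjusted p = 0.00165) and 0.74 (adjusted p = 1.43e-07). Xrcc4, the partner of Lig4, was not called. The counts were 4 higher and 1 lower of 6 with shAD4-1, or 83.3% called, beside 65.0% of all tested genes. With shAD4-2, 3 of the 6 were called higher and none lower, a share below the 69.0% of all tested genes.

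Among 7 mismatch repair genes, 3 were called higher and 1 lower in each comparison with control. That share of 57.1% lay below the 65.0% and 69.0% of all tested genes. Of the mismatch-binding subunits, Msh6 was not called, and Msh3, which serves larger insertion loops, was at 15.8, 14.1 and 13 CPM in the control, 16.8, 17.6 and 16 in the shAD4-1 and 13.5, 12.4 and 14.5 in the shAD4-2 libraries. Msh3 was called with shAD4-1 alone (0.23, SE 0.089, adjusted p = 0.028), a call that was lost without shControl replicate 2 or 3 or shAD4-1 replicate 1 or 2, or with limma on FPKM (adjusted p = 0.06 to 0.129), and with shAD4-2 it was not called (-0.084, SE 0.091, adjusted p = 0.419). Pms2, which nicks the strand to be repaired, was at 12.2, 14.5 and 13.4 CPM in the control, 14.3, 17.2 and 16.2 in the shAD4-1 and 18.1, 18.4 and 17.5 in the shAD4-2 libraries, 0.25 and 0.43 (adjusted p = 0.019 and 0.000287), and the shAD4-1 call was lost without shControl replicate 1 or shAD4-1 replicate 2 or 3, or with limma on FPKM (adjusted p = 0.054 to 0.145). Pms1, a relative of Pms2, fell, at 35.2, 36.9 and 36.2 CPM in the control, 26.5, 29.9 and 29.9 in the shAD4-1 and 31, 29.3 and 29.7 in the shAD4-2 libraries. The changes were -0.33 (SE 0.061, adjusted p = 0.000132) with shAD4-1 and -0.27 (SE 0.062, adjusted p = 0.000896) with shAD4-2. Mlh3, a further relative, was called with neither hairpin.

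Among the nucleotide excision repair genes Ddb1 and Rad23b rose with both hairpins, and their partners Ddb2 and Xpc fell. Ddb1, which joins the Cul4 ubiquitin ligase to Ddb2 and to many other substrate receptors, was at 402, 403 and 384 CPM in the control, 705, 722 and 693 in the shAD4-1 and 765, 754 and 739 in the shAD4-2 libraries, log2 fold changes 0.83 (SE 0.035, adjusted p = 4.45e-13) with shAD4-1 and 0.93 (SE 0.035, adjusted p = 8.18e-14) with shAD4-2. Ddb2 is the subunit that touches the ultraviolet lesion. It was at 16.4, 16.9 and 17.4 CPM in the control, 11, 12.1 and 11.6 with shAD4-1 and 10.4, 10.5 and 11 with shAD4-2. Its log2 fold changes were -0.55 (SE 0.080, adjusted p = 8.01e-06) and -0.67 (SE 0.081, adjusted p = 6.93e-07). Xpc, which receives the lesion from Ddb2, was at 65.5, 71.4 and 74.9 CPM in the control, 63.3, 60.3 and 65.5 in the shAD4-1 and 61.5, 63.5 and 59 in the shAD4-2 libraries, -0.16 and -0.20 on the log2 scale (adjusted p = 0.0121 and 0.00265), and the shAD4-1 call was lost without shControl replicate 3 or shAD4-1 replicate 2 (adjusted p = 0.0737 to 0.0873). Rad23b, the stabilising partner of Xpc, stood at 371, 379.7 and 385 CPM in the control, 553, 569 and 572 in the shAD4-1 and 493, 494 and 496 in the shAD4-2 libraries, and rose by 0.58 (SE 0.034, adjusted p = 3.96e-11) with shAD4-1 and 0.38 (SE 0.034, adjusted p = 9.13e-09) with shAD4-2. The TFIIH helicase Ercc2 was called with neither hairpin.

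Ercc6, the ATPase that starts repair at stalled RNA polymerase, stood at 38.4, 39.8 and 38.2 CPM in the control, 52.4, 55.1 and 54.8 in the shAD4-1 and 57.8, 58.4 and 58.5 in the shAD4-2 libraries, 0.48 and 0.59 on the log2 scale (adjusted p = 7.57e-08 and 4.11e-09). Ercc8, its partner in the same route, fell with both (-0.52 and -0.70). Ercc3, a helicase of TFIIH, was lower with both as well (-0.39 and -0.17), and its shAD4-2 call was lost without shControl replicate 3 (adjusted p = 0.063). Of the incision nucleases, Ercc4 was higher with both (0.33 and 0.62), and the first call was lost with limma on FPKM (adjusted p = 0.0553 to 0.0587). Its partner Ercc1 was called lower with shAD4-2 alone (-0.28), lost without shAD4-2 replicate 3 (adjusted p = 0.0865), where the change was -0.18. Xpa was also lower (-0.33) and Ercc5 higher (0.15) with shAD4-2 alone, the latter lost with limma on FPKM (adjusted p = 0.0714 to 0.0717). With shAD4-1, 4 of the 13 genes were called higher and 4 lower, and with shAD4-2, 5 and 6. The calls covered 61.5% and 84.6% of them, beside 65.0% and 69.0% of all tested genes.

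In base excision repair the endonuclease that most of its routes share rose, and the glycosylases went both ways. Apex1, which cuts the backbone at sites that have lost their base, was at 23.3, 19.6 and 21.4 CPM in the control, 34.4, 35.3 and 35.8 in the shAD4-1 and 49.5, 48.2 and 45.6 in the shAD4-2 libraries. No group overlapped another, and the log2 fold changes were 0.71 (SE 0.066, adjusted p = 2.15e-08) with shAD4-1 and 1.16 (SE 0.065, adjusted p = 2e-11) with shAD4-2. Ung, which removes uracil, stood at 7.05, 7.62 and 8.28 CPM in the control, 12.1, 12 and 12.2 in the shAD4-1 and 14, 12.3 and 11.9 in the shAD4-2 libraries, with changes of 0.66 (SE 0.10, adjusted p = 9.89e-06) with shAD4-1 and 0.73 (SE 0.10, adjusted p = 2.62e-06) with shAD4-2. Ogg1, which removes oxidised guanine, fell, at 35.8, 42.4 and 40.2 CPM in the control, 34.4, 35.4 and 35.1 in the shAD4-1 and 28.7, 30.7 and 30.3 in the shAD4-2 libraries. Its changes were -0.18 (SE 0.063, adjusted p = 0.0203) with shAD4-1 and -0.40 (SE 0.064, adjusted p = 1.98e-05) with shAD4-2, the first lost without shControl replicate 2 or 3 or shAD4-1 replicate 1 (adjusted p = 0.0609 to 0.15), and -0.12 without shControl replicate 2. Neil1, a glycosylase for oxidised pyrimidines, was at 14.3, 13.6 and 12.2 CPM in the control, 16.1, 16.4 and 15.4 in the shAD4-1 and 12.3, 12.7 and 14.1 in the shAD4-2 libraries. It rose with shAD4-1 (0.26, SE 0.086, adjusted p = 0.0134), a call lost without shControl replicate 3 (adjusted p = 0.0647), and was not called with shAD4-2 (-0.039, SE 0.088, adjusted p = 0.704). Its relatives differed, Neil2 higher with both (0.37 and 0.28) and Neil3, expressed mainly in dividing cells, lower with both (-0.50 and -0.49). Xrcc1, the scaffold of single-strand break repair, was called with shAD4-2 alone (0.29, adjusted p = 0.000109), and Lig3 and Mutyh were not called. The counts were 4 higher and 2 lower of 9 in each comparison with control, or 66.7%, beside 65.0% and 69.0% of all tested genes.

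Polymerases that copy past lesions moved in opposite directions. Polh, which copies past ultraviolet dimers accurately, stood at 19.9, 21.4 and 20.3 CPM in the control, 32.5, 33.5 and 35.3 in the shAD4-1 and 38, 36.6 and 38.2 in the shAD4-2 libraries, log2 fold changes 0.72 (SE 0.060, adjusted p = 6.39e-09) with shAD4-1 and 0.87 (SE 0.060, adjusted p = 3.59e-10) with shAD4-2. Polk, which extends past bulky adducts, was at 79.4, 81.9 and 80.0 CPM in the control, 64, 64.5 and 62.1 in the shAD4-1 and 69.2, 68 and 67.2 in the shAD4-2 libraries. Its log2 fold changes were -0.34 (adjusted p = 1.23e-06) and -0.24 (adjusted p = 6.61e-05), and neither hairpin group overlapped the control. Rad18, the ubiquitin ligase that marks PCNA so that these polymerases are recruited, was at 44.1, 47.2 and 45.4 CPM in the control, 52.7, 51 and 54.3 in the shAD4-1 and 53.7, 53.6 and 53.4 in the shAD4-2 libraries, 0.21 and 0.23 on the log2 scale (adjusted p = 0.00108 and 0.000376). The symbol rule also took Rad21, a cohesin subunit, and Rad54l2, a relative of Rad54l known as a cofactor of nuclear receptors. Rad21 was at 299, 294 and 296 CPM in the control, 307, 319 and 316 in the shAD4-1 and 318, 321 and 319 in the shAD4-2 libraries, 0.083 and 0.11 (adjusted p = 0.0367 and 0.00956). The first of these calls was lost without shControl replicate 2 or 3 or shAD4-1 replicate 2 or 3, with limma on FPKM, with only the compared groups in the fit, or with the replicate block (adjusted p = 0.0513 to 0.451), the second with limma on FPKM (adjusted p = 0.114 to 0.128). Rad54l2 was at 95.7, 96.4 and 98.5 CPM in the control, 79.6, 80.0 and 80.0 in the shAD4-1 and 82.9, 82.7 and 81.4 in the shAD4-2 libraries, with log2 fold changes -0.28 (SE 0.039, adjusted p = 5.43e-06) with shAD4-1 and -0.23 (SE 0.039, adjusted p = 3.53e-05) with shAD4-2.

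**Figure D3:**
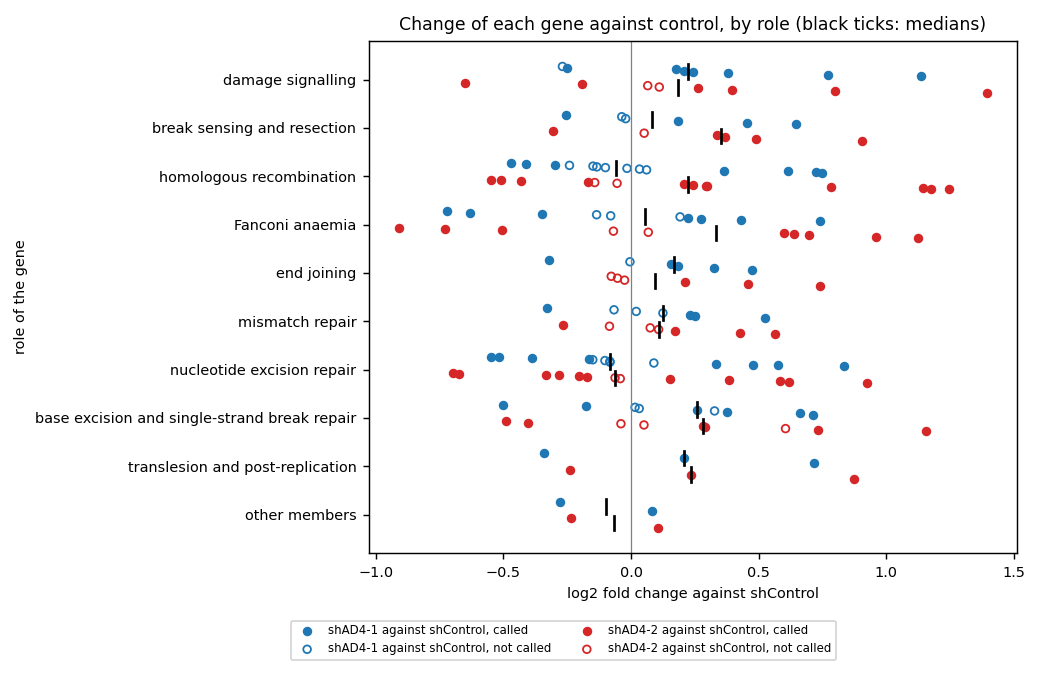
Log2 fold change of each of the 78 genes against control (horizontal axis), by role (vertical axis), for shAD4-1 (blue) and shAD4-2 (red), filled where called. Black ticks mark the medians, which for homologous recombination lay at -0.058 with shAD4-1 and 0.22 with shAD4-2 and for Fanconi anaemia at 0.056 and 0.33.

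The hairpin groups were compared with each other in the same fit. Of the 78 genes 20 were called higher and 8 lower with shAD4-2 than with shAD4-1, 35.9% beside 27.4% of all tested genes (13.4% higher and 14.0% lower), with a median log2 difference of 0.064 beside -0.0049. The libraries of the hairpin groups did not overlap in 43 genes (55.1%, beside 44.5%). Differences of at least 1.5-fold were upward for 2 genes, Fancb and Rad54l (2.56%, beside 0.963%), and downward for none (beside 2.93%). Of the 20, 11 were also called higher with both hairpins against control, and the matching share of all tested genes was not worked out. The count of 8 went to 3 without shAD4-1 replicate 2, and to 4 without shAD4-2 replicate 1 or replicate 2. Among the largest called differences upward were those of Fancb (0.77, SE 0.23, adjusted p = 0.0192), Rad54l (0.72, SE 0.10, adjusted p = 2.54e-05), Brca1 (0.50, SE 0.048, adjusted p = 1.24e-06) and Exo1 (0.45, SE 0.074, adjusted p = 0.000208), whose values per library stand above. In each of these genes every shAD4-2 library lay above every shAD4-1 library. The call of Fancb was lost without shAD4-1 replicate 2 or shAD4-2 replicate 3 (adjusted p = 0.0918 to 0.0971). Downward the largest among the called genes were Rad9b (-0.38, SE 0.13, adjusted p = 0.04), Msh3 (-0.32, SE 0.090, adjusted p = 0.0131), Neil1 (-0.30, SE 0.086, adjusted p = 0.0157), Xrcc6 (-0.24, SE 0.042, adjusted p = 0.000437) and Ogg1 (-0.23, SE 0.064, adjusted p = 0.0138), again without overlap. Of these the call of Rad9b was lost without shControl replicate 2, shAD4-1 replicate 1 or 3 or shAD4-2 replicate 1, 2 or 3 (adjusted p = 0.053 to 0.153). That of Msh3 was lost without shAD4-1 replicate 2 or shAD4-2 replicate 2 (adjusted p = 0.0641 to 0.0716), that of Neil1 without shAD4-1 replicate 2 or shAD4-2 replicate 1 or 2 (adjusted p = 0.0578 to 0.0787), and that of Ogg1 without shAD4-1 replicate 2 or shAD4-2 replicate 1 (adjusted p = 0.0519 to 0.0729).

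Further genes of the same routes were higher with shAD4-2 than with shAD4-1: Apex1 (0.44), Fanci (0.43), Bard1 (0.42), Polq (0.42), Fancm (0.41), Blm (0.40) and Brip1 (0.39), as log2 differences. Xrcc5 differed too (0.30, SE 0.050, adjusted p = 0.000289), in the direction opposite to Xrcc6. Chek1, the gene with the largest changes against control, was not called between the hairpins (0.26, SE 0.10, adjusted p = 0.0537). It was called, however, without shControl replicate 1 or 3, shAD4-1 replicate 3 or shAD4-2 replicate 2, with only the compared groups in the fit, with the replicate block, with RLE scaling, with DESeq2, with no filter, or with mitochondrially encoded genes left out (adjusted p = 0.0101 to 0.0439). Several small differences depended on single libraries. Atr (-0.14) lost its call without shAD4-1 replicate 2 or 3 or shAD4-2 replicate 1 or 2, or with limma on FPKM (adjusted p = 0.056 to 0.114). Rad50 (0.15) lost it without shAD4-1 replicate 1 or 3 or shAD4-2 replicate 1 or 3 (adjusted p = 0.0518 to 0.101). Ercc4 (0.29) lost it without shAD4-1 replicate 1, 2 or 3 or shAD4-2 replicate 2 or 3, with limma on FPKM, or with the replicate block (adjusted p = 0.0524 to 0.128). Rad52 (-0.21) lost it without shControl replicate 2, shAD4-1 replicate 1, 2 or 3 or shAD4-2 replicate 1, 2 or 3, with the replicate block, with RLE scaling, with DESeq2, with no filter, or with mitochondrially encoded genes left out (adjusted p = 0.058 to 0.191). Ercc3 (0.22), Ercc5 (0.26), Rad51ap1 (0.34), Xrcc1 (0.28) and Rad23b (-0.19) were also called between the hairpins.

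**Figure D4:**
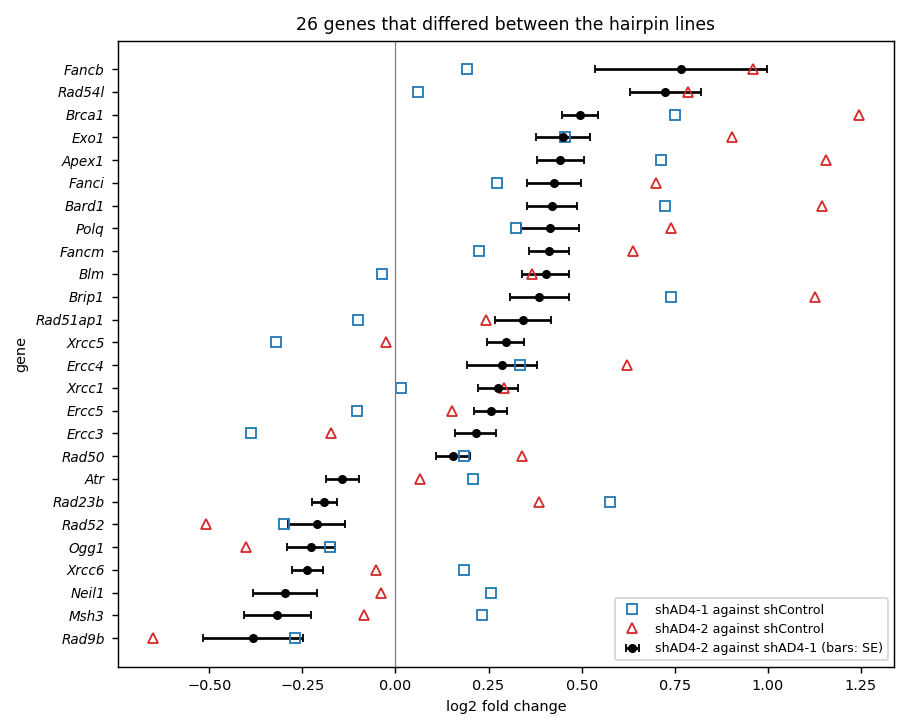
26 of the 28 genes called between the hairpin groups, with the log2 fold change of shAD4-2 against shAD4-1 (black, bars are SE) and each hairpin's change against control (blue squares and red triangles). For the 18 genes drawn with a positive difference the red triangle lies to the right of the blue square, from Fancb at 0.77 to Rad50 at 0.15.

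Other genes of these routes, 88 in the table of which 87 were tested, were taken from a list set by role. Earlier results of these data were known when it was set. With shAD4-1, 31 were called higher and 19 lower (57.5%, beside 65.0% of all tested genes), and with shAD4-2, 49 and 22 (81.6%, beside 69.0%). Replication checkpoint partners rose with both: Clspn, the adaptor through which Atr activates Chek1, went from 17.1 ± 0.898 CPM in control to 28.4 ± 1.16 and 38.5 ± 1.16 (mean ± SD, n = 3), a rise of 0.73 and 1.17 on the log2 scale (adjusted p = 1.26e-08 and 1.33e-11). Timeless (0.60 and 0.93), Topbp1 (0.24 and 0.54) and Mdc1 (0.36 and 0.55) rose with it. Of the 13 further signalling genes 7 were called higher and none lower with shAD4-1, and 11 higher and 1 lower with shAD4-2. The lower one was Rif1 (-0.28), which limits resection. Called were 53.8% and 92.3%, beside 65.0% and 69.0% of all tested genes. Rpa2, a subunit of the protein that coats single-stranded DNA, went from 11.0 ± 0.944 to 22.0 ± 2.45 CPM with shAD4-1 and 31.5 ± 0.637 with shAD4-2, and Rpa1 changed by 0.24 and 0.37. Sfr1, a recombination mediator, rose from 133 ± 13.1 to 267 ± 2.02 and 283 ± 4.94 CPM. Gen1, which resolves crossed strands, changed by 0.36 and 1.27, and the shAD4-1 value was 0.60 without shControl replicate 1 and lost its call without shControl replicate 2 or 3 or shAD4-1 replicate 1, or with limma on FPKM (adjusted p = 0.0652 to 0.0993).

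In resection, the helicases Recql4 (1.19 and 1.34) and Dna2 (0.85 and 1.33) and the factor Rbbp8 (0.36 and 0.49) rose with both hairpins. Recql fell with shAD4-1 alone (-0.43), and with shAD4-2 (-0.12) it was called without shControl replicate 3, or with limma on FPKM (adjusted p = 0.0309 to 0.0329). Fancd2, the partner of Fanci, rose from 32.5 ± 0.652 CPM to 45.5 ± 1.27 with shAD4-1 and 62.8 ± 1.96 with shAD4-2 (adjusted p = 1.6e-07 and 1.14e-11). Wdr48, a cofactor of its deubiquitinase, rose (0.41 and 0.41), and Faap100, a further core complex subunit, fell (-0.56 and -0.75). Uhrf1 changed by 0.16 and 0.47, the first lost without shControl replicate 2 or shAD4-1 replicate 1 or 3, or with limma on FPKM (adjusted p = 0.0512 to 0.177). The end joining factors Paxx (-1.04 and -0.96) and Dclre1c (-0.41 and -0.51), the nuclease Artemis, fell with both, and Poll (-0.34) with shAD4-2. With shAD4-1 Poll was called without shControl replicate 1, or with limma on FPKM (adjusted p = 0.0221 to 0.0351). Nhej1 was called higher with shAD4-2 (0.60), lost without shControl replicate 2 or shAD4-2 replicate 2 (adjusted p = 0.0965 to 0.0991), where the change was 0.39 without shControl replicate 2, and with shAD4-1 it was called without shControl replicate 3, or with no filter (adjusted p = 0.0107 to 0.0228).

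Among genes that act in excision repair, Tdg, a thymine glycosylase, rose from 59.4 ± 1.53 CPM in control to 104 ± 5.16 and 118 ± 0.945, and Parp1, the sensor of strand breaks, from 135 ± 3.72 to 218 ± 2.44 and 199 ± 2.62. Parp2 and Fen1, which act at nicks and flaps, were the genes of this list called in opposite directions, Parp2 at -0.19 and 0.20 and Fen1 at -0.35 and 0.17. Aptx rose with shAD4-1 alone (0.38), and Aplf fell with both (-0.23 and -0.43). The ligase scaffolds Cul4b (0.70 and 0.71) and Cul4a (0.27 and 0.30) rose as their adaptor Ddb1 did, Cetn2, a subunit of the Xpc complex, fell (-0.36 and -0.38), and Gtf2h4 of TFIIH rose (0.45 and 0.24), the second lost without shControl replicate 3 or shAD4-2 replicate 1 or 2, or with limma on FPKM (adjusted p = 0.0503 to 0.0773). The sliding clamp Pcna rose (0.38 and 0.66), as did its loader subunit Rfc1 (0.14 and 0.25), while Rfc5 fell (-0.42 and -0.22). The shAD4-1 call of Rfc1 was lost with limma on FPKM (adjusted p = 0.124). Lig1 rose with shAD4-2 alone (0.34), and with shAD4-1 (-0.11) it was called lower without shControl replicate 1, or with limma on FPKM (adjusted p = 0.00333 to 0.0437). Poli, a lesion-copying polymerase, fell from 53.9 ± 3.16 CPM to 31.7 ± 2.04 and 28.1 ± 0.180. Shprh rose slightly (0.18 and 0.21), the first lost with limma on FPKM (adjusted p = 0.0634 to 0.0666). Mad2l2 fell (-0.36 and -0.24), the second lost without shControl replicate 3, shAD4-1 replicate 3 or shAD4-2 replicate 1, 2 or 3, with only the compared groups in the fit, with the replicate block, or with DESeq2 (adjusted p = 0.0508 to 0.295) and -0.12 without shControl replicate 3. Hltf fell with shAD4-2 (-0.15), lost without shAD4-2 replicate 1 (adjusted p = 0.0718). The demethylases Alkbh2 and Alkbh3, which reverse alkylated bases, were lower with shAD4-2 (-0.42 and -0.26), and Alkbh3 also with shAD4-1 (-0.23, and -0.15 without shControl replicate 2).

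Genes of S phase changed as well, most of them upward. Of 20 replication genes, 12 were called higher and 2 lower with shAD4-1, beside 32.7% and 32.3% of all tested genes. The lower ones were Mcm5 (-0.32) and Tk1 (-0.53), and Mcm6, Rrm1, Prim1, Gins1, Ccne1 and E2f1 were not called. With shAD4-2, 18 were called higher and none lower, beside 34.2% and 34.8% of all tested genes. Between the hairpins, 17 were called higher with shAD4-2 and none lower, beside 13.4% and 14.0%. The median log2 fold changes of the 20 were 0.45, 0.70 and 0.35. Their summed level was 999.9 to 1081 CPM in the control libraries, 1360 to 1389 with shAD4-1 and 1755 to 1787 with shAD4-2. The factor E2f1 was called in none of the comparisons. The part of these genes, and that of the phase of the cells, in the changes of the repair genes was not tested.

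Exons of 26 of the 78 genes overlap those of another tested gene in the GENCODE M21 annotation, 25 of them on the opposite strand. Whether the authors' counting used strand is not stated in the sources at hand, and these genes may share or lose reads. Apex1 overlaps Pip4p1, which rose with both hairpins (0.29 and 0.44, beside 0.71 and 1.16 for Apex1). Rad9a overlaps Ppp1ca, which fell (-0.27 and -0.30), and Ddb1 overlaps Tkfc, which fell (-0.27 and -0.31). Ddb2 overlaps Acp2, which rose (0.18 and 0.28), and Ogg1 overlaps Camk1, which rose (0.25 and 0.15). Rad17 overlaps Ak6, which rose (0.97 and 0.86), and Rad9b overlaps Pptc7, which rose (0.49 and 0.30). Fancf overlaps Gas2, which fell by more (-1.04 and -1.21). Xrcc6 overlaps Desi1, which was called with shAD4-1 (0.12) and not with shAD4-2 (0.063). In Rad9a, Ddb1, Ddb2 and Ogg1 the overlapping gene thus moved in the opposite direction, in Rad9b likewise with shAD4-2, and in Apex1, Rad17 and Fancf it moved in the same one.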

How the data were processed

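Total RNA of cultured B16 cells was sequenced in 9 libraries, 3 each of control hairpin, shAD4-1 and shAD4-2 cells, and per the labels' protocols the kit was VAHTS Universal V6. The authors deposited whole-number read counts per gene for every library, and FPKM values, which were found to equal those counts per kilobase, scaled by the library's total. The tools fastp, HISAT2 and HTSeq and the build GRCm39 are named in the submitters' processing notes. Neither the annotation nor the strand setting is stated there or in the labels.

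Counts were filtered with filterByExpr, scaled by TMM and tested in 1 edgeR 4.0.16 quasi-likelihood model of the 3 groups over all 9 libraries (R 4.3.3), with Benjamini-Hochberg adjustment over 13807 genes and a threshold of 0.05. The common biological coefficient of variation was 5.15%. A fold change is a log2 value between group means, 0 meaning no change. The procedure was tested on simulated data. Alternatives were RLE scaling, DESeq2 1.42.0, other filters, a fit of the compared groups alone, a replicate block, limma 3.58.1 on log2(FPKM + 0.1) and log2(FPKM + 1), each library left out in turn and, added after the data were seen, a fit without mitochondrially encoded genes.

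The members, the role groups and the lists were chosen with earlier results of these data known. Values per library are given for up to 3 members per role with the smallest adjusted p, for a set of well-known members, and for the 5 largest differences each way among genes called between the hairpins. Other pathway genes are named by the smallest adjusted p, up to 4 per role. All further genes named were chosen after their values were seen. A few members that enter the counts and medians are not reported here by name.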

Additional observations from a re-analysis of the deposited data

Results flagged for a closer look

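In the 12 genes named here the change was called with 1 hairpin only and the difference between the hairpins was itself called by edgeR, in the model of all 9 libraries. The share of all tested genes with that pattern was not worked out. With 3 libraries a group, no search for outlying values in single genes was made. All values are log2 differences of shAD4-2 against shAD4-1.

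Rising with shAD4-2 alone were Fancb (0.77), Rad54l (0.72), Blm (0.40), Rad51ap1 (0.34), Xrcc1 (0.28) and Ercc5 (0.26). Their changes with shAD4-1 lay between -0.10 (Ercc5) and 0.19 (Fancb) and were not called. Rad9b differed by -0.38 and fell with shAD4-2 alone.

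Called with shAD4-1 alone were the Ku subunits Xrcc5, lower, with a difference of 0.30, and Xrcc6, higher, with a difference of -0.24. The kinase Atr (-0.14), the mismatch repair gene Msh3 (-0.32) and the glycosylase Neil1 (-0.30) rose with shAD4-1 alone.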

How the results depend on the processing

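Counts of called genes against control moved within 1.5 times of their reported values under every alternative run. With each library left out in turn, genes higher with shAD4-1 numbered 31 to 35 and lower 14 to 21. With shAD4-2 they numbered 36 to 40 and 18 to 22. Between the hairpins, genes higher numbered 17 to 26 and lower 3 to 11. The other alternatives gave 29 to 35 and 18 to 24 with shAD4-1, 33 to 40 and 20 to 22 with shAD4-2, and 20 to 25 and 7 to 10 between the hairpins. Libraries with the same replicate number showed no sign of pairing. Their deviations correlated at -0.124 to 0.00225, beside -0.0694 to 0.11 for libraries with different numbers. Whether libraries were prepared together was not tested. With the replicate block, 34 and 18, 38 and 21, and 20 and 7 genes were called higher and lower in the 3 comparisons, and of the calls of single named genes 5 were lost and 1 gained. The uncalled changes of 4 genes took either sign when a library was left out: Rad54l with shAD4-1 (-0.037 to 0.16), and, with shAD4-2, Neil1 (-0.092 to 0.020), Xrcc5 (-0.064 to 0.028) and Msh3 (-0.14 to 0.00081). Searched alone, TTTCCCGC and TTCCCGCC each stood in 10.3% of the members' windows, TTTGGCGC in 1.47% and TTTCGCGC in 2.94%, fewer than the 20.6% that held any of them. With 3 libraries a group, small differences between hairpins passed or missed the threshold with the choice of libraries.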
